A study of Rattus norvegicus with 6 samples.

Results

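The calcium/calmodulin kinases examined here are 8 genes, Camk2a, Camk2b, Camk2d, Camk2g, Camk4, Camk1, Camkk1 and Camkk2, chosen by symbol from the 19382 genes of a table of estimated read counts from rat brain. Each of the 8 symbols matched exactly 1 row, and all 8 members passed the filter on low counts that left 14959 genes for testing. RNA was sequenced from brain tissue of 3 SD rats labelled as hypoxic-ischemic, called HI here, which underwent 2.5 h of ischemia with hypoxia at 7 days of age, and of 3 normal rats labelled as control treatment. The sources used here give no age for the controls, no sex, no brain region and no interval between injury and sampling, and do not say that each library is a separate animal. The p-values therefore reflect only how much these libraries vary, part of which can be technical. Echinatin, the compound in the title of the series, is not among the labelled treatments of these 6 libraries.

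These kinases translate a rise of calcium in a cell into phosphorylation. Calcium binds calmodulin, and the complex opens the kinases. CaMKII, encoded by Camk2a, Camk2b, Camk2d and Camk2g, assembles into a multi-subunit holoenzyme, stays partly active after it has phosphorylated itself, and is a main protein of excitatory synapses, where it is needed for long-term potentiation. Camk2a and Camk2b are the forms typical of neurons, while Camk2d and Camk2g are made in most tissues. CaMKI (Camk1) and the largely nuclear CaMKIV (Camk4), which phosphorylates the transcription factor CREB, need a further phosphorylation by the calcium/calmodulin-dependent kinase kinases Camkk1 and Camkk2, and Camkk2 also activates the energy sensor AMPK. Camk4 is abundant in neurons, and Camk1 is broadly expressed.

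The stretches before the transcription starts of the 4 CaMKII genes and of Camk4 are shown because neuronal and broadly expressed members are compared below. They are RefSeq sequences of assembly GRCr8, 250 bases each, 5′ to 3′, with matches on either strand to the core of the cAMP response element (TGACG, called CRE core here) or to a GC box (GGGCGG) in capitals. GC boxes that overlap or adjoin run together in the capitals.
Camk2a, chr18:56648930-56649179, plus strand: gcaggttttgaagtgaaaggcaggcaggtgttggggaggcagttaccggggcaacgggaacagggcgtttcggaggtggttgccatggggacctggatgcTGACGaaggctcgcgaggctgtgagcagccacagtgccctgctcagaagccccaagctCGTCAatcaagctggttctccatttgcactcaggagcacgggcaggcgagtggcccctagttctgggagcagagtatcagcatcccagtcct
Camk2b, chr14:85147945-85148194, minus strand: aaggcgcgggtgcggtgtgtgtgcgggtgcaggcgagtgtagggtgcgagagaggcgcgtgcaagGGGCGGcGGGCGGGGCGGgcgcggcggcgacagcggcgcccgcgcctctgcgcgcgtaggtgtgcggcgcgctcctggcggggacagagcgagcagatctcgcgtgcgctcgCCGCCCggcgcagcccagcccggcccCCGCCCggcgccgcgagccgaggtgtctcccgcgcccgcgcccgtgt
Camk2d, chr2:217698301-217698550, plus strand: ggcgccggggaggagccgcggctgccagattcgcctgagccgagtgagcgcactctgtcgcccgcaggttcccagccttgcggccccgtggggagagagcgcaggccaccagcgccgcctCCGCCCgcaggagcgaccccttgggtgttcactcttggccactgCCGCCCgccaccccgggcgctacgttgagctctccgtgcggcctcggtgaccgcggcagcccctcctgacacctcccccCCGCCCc
Camk2g, chr15:3553106-3553355, plus strand: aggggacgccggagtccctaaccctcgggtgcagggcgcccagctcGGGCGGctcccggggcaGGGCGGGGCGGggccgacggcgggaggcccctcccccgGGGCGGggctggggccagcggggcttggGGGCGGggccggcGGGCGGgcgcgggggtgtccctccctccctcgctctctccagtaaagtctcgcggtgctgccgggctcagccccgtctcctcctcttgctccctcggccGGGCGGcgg
Camk4, chr18:24856902-24857151, plus strand: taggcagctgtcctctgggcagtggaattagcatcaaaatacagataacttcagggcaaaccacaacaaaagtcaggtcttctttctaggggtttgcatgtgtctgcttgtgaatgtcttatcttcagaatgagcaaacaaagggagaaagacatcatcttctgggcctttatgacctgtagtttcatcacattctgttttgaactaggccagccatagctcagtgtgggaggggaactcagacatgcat

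Camk2b, Camk2d and Camk2g had 5, 3 and 7 GC boxes and a G and C content of 80.4%, 75.2% and 80.8%. Camk2a had no GC box, 2 CRE cores and a content of 60.4%, and Camk4 had neither motif and a content of 44.4%. The neuronal Camk2a, Camk2b and Camk4 thus shared neither motif among all of them in this window, and GC boxes were present in Camk2b as well as in the broadly expressed Camk2d and Camk2g. Of 33469 rat promoters cut the same way, 30.5% held a GC box and 18.2% a CRE core, and the median G and C content was 51.2%. The CRE core was also present in the windows of Camk1 and Camkk1, with 1 match each, and 7 of the 8 members had an entry. The RefSeq span of the gene begins further upstream than the start used for these windows in Camk2a, Camk2b, Camk2d and Camk2g, so 250, 177, 227 and 118 of the printed bases lie inside that span, against 0 for Camk4.

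Reads counted in genes totalled 14324303 to 14927469 in HI libraries and 13922663 to 14692505 in controls. The 8 members together took 0.0876% to 0.115% of these reads in an HI library and 0.199% to 0.208% in a control. Levels are given as CPM, read counts scaled to library size with TMM factors, and they are not corrected for transcript length, so a level is compared between libraries and not between genes. Libraries stood apart within the groups. Summed levels of 8 choroid plexus genes were 179, 8022 and 15100 CPM in HI 1, HI 2 and HI 3 and 14.5, 2126 and 5.54 CPM in controls 1, 2 and 3. Emx1, a transcription factor of the developing cortex, had 0.736, 1.48 and 2.18 CPM in HI 1 to 3 and 41, 50.6 and 4.27 CPM in controls 1 to 3, while the summed level of 9 striatal neuron genes was 213 to 442 CPM in HI and 537, 707 and 1613 CPM in controls 1 to 3. Reads of Y-linked genes numbered 1356 to 1824 in HI 2, HI 3 and control 3 and at most 3 in the other libraries. Control 3 therefore differed from the other controls in its regional markers and in Y-linked reads, and the log2 fold changes of the 8 members are given with and without it.

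The question of the comparison is how transcripts of these kinases stand in HI brain against control brain, and whether neuronal and broadly expressed forms behave alike. Of the 8 members 5 fell in HI and 0 rose: the neuronal CaMKII genes Camk2a and Camk2b, the neuronal Camk4, and both upstream kinases, Camkk1 and Camkk2 (edgeR quasi-likelihood test, p adjusted by Benjamini-Hochberg over all tested genes and below 0.05). Their levels in HI were 0.226 to 0.555 of those in control. The broadly expressed Camk2d, Camk2g and Camk1 did not pass. Among all tested genes 13.9% passed, 7.04% lower and 6.83% higher in HI. The groups did not overlap in 6 of the 8 members, all lower in HI, against 42.3% of all tested genes in either direction and 20.8% in that direction. At an unadjusted p below 0.05 the members counted 5 lower and 0 higher, and the DESeq2 Wald test called the same 5. Of the 14959 tested genes, 5460 had an unadjusted p below 0.05 in edgeR. DESeq2 called 4200 of the 14959 genes, 2124 lower and 2076 higher in HI. The edgeR call of all 5 ended without control 1, without control 2 or without HI 2, where the whole table kept 0, 1 and 0 calls. In those fits 6, 5 and 5 members had an unadjusted p below 0.05, against 3962, 4008 and 4175 genes of the table. Without control 3 the log2 fold changes were -1.54 for Camk2a, -1.55 for Camk2b, 0.56 for Camk2d, -0.21 for Camk2g, -2.04 for Camk4, -0.24 for Camk1, -0.98 for Camkk1 and -2.46 for Camkk2, and Camkk1 no longer passed (edgeR adjusted p = 0.0584). Of all called genes 49.2% were higher in HI. Scaling by upper-quartile factors gave 64.3% and by total counts 74.7%, for which the median log2 fold change of all genes was 0.14 and 0.23 in place of 0.04.

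**Figure D1:**
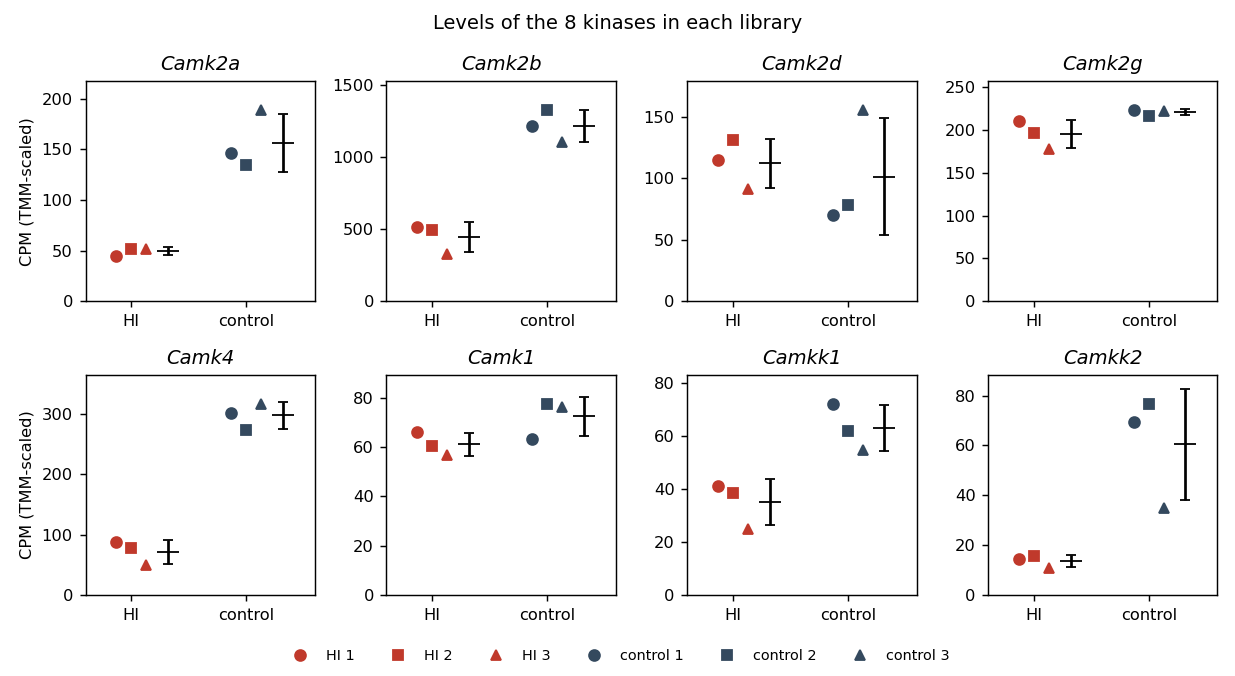
Level of each kinase in CPM (TMM-scaled, axis from 0) in the 3 HI libraries (red) and the 3 control libraries (dark blue), with the mean and SD of each group as black bars and a symbol shape per replicate number. Camk2a, Camk2b, Camk4, Camkk1 and Camkk2 lie lower in every HI library than in any control, and Camk2d and Camk1 overlap between the groups.

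Camk2a, the alpha subunit of CaMKII and the most studied kinase of the postsynaptic density, had 44.7, 51.9 and 51.4 CPM in HI 1, HI 2 and HI 3, against 146, 134 and 189 CPM in controls 1, 2 and 3. The HI libraries were close together and the groups did not overlap, with the highest level in control 3. It averaged 49.3 ± 3.98 CPM in HI and 156 ± 28.8 CPM in control (SD, n = 3 each), and fell by 1.67 ± 0.15 (SE) on the log2 scale (edgeR adjusted p = 0.0196). That adjusted p was the lowest in the table, but other genes shared it, Camk4 among them. By unadjusted p Camk2a ranked 12 among the tested genes. In bulk tissue, fewer cells of a type and less RNA per cell cannot be told apart, and this holds for every level given here.

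Camk2b, the beta subunit, which binds actin and holds the holoenzyme at the cytoskeleton of the spine, had 518, 493 and 330 CPM in HI 1 to 3, against 1219, 1331 and 1110 CPM in controls 1 to 3. All HI libraries lay below all controls, with HI 3 lowest. The log2 fold change was -1.45 ± 0.20 (SE), with an edgeR adjusted p of 0.0215, and the averages were 447 ± 102 CPM in HI and 1220 ± 110 CPM in control (SD, n = 3 each).

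Camk2d, the delta subunit, best known as the main CaMKII of heart, had 115, 131 and 91.3 CPM in HI 1 to 3, against 69.9, 78.7 and 156 CPM in controls 1 to 3. Control 3 stood above every HI library and the other controls below every one, so the groups overlapped. The log2 fold change was 0.15 with a 95% interval from -0.62 to 0.92 (edgeR adjusted p = 0.766), an interval wide enough to hold either direction. Without control 3 it was 0.56, which did not pass (edgeR adjusted p = 0.0988), and without control 1 or control 2 it was -0.09 or -0.03.

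Camk2g, the gamma subunit, had 210, 197 and 178 CPM in HI 1 to 3, against 223, 216 and 222 CPM in controls 1 to 3. It was slightly lower in every HI library than in any control. Its log2 fold change of -0.18 (95% interval from -0.42 to 0.06) did not pass the edgeR test (adjusted p = 0.235), and with total-count scaling it was 0.01. Some of its entries were not whole, so part of its reads appears to be shared with similar sequences and its values are less certain than those of the other members.

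Camk4, the CREB kinase of neuronal nuclei, had 87.9, 77.4 and 49.6 CPM in HI 1 to 3, against 302, 274 and 317 CPM in controls 1 to 3. The controls were close together and the highest HI library stood far below the lowest of them. It averaged 71.6 ± 19.8 CPM in HI and 298 ± 21.9 CPM in control (SD, n = 3 each), a level of 0.240 of control and a log2 fold change of -2.06 ± 0.22 (SE) with an edgeR adjusted p of 0.0196.

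Camk1, a cytoplasmic kinase studied in axon and dendrite growth, had 66.2, 60.3 and 56.8 CPM in HI 1 to 3, against 63.2, 77.6 and 76.4 CPM in controls 1 to 3. The groups overlapped, because HI 1 exceeded control 1. The log2 fold change of -0.24 (95% interval from -0.53 to 0.04) did not pass (edgeR adjusted p = 0.188).

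Camkk2, the kinase that activates CaMKI, CaMKIV and AMPK, had 14.6, 15.6 and 10.7 CPM in HI 1 to 3, against 69.4, 76.8 and 35 CPM in controls 1 to 3. It had the lowest fold change of the 8 members, a level of 0.226 of control with a log2 fold change of -2.15 ± 0.32 (SE, edgeR adjusted p = 0.0219). Control 3 stood well below the other controls yet above every HI library. Without control 3 the log2 fold change was -2.46 (edgeR adjusted p = 0.0138).

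Camkk1, the other kinase kinase, had 41.2, 38.4 and 25.0 CPM in HI 1 to 3, against 72.1, 61.9 and 54.7 CPM in controls 1 to 3. The groups did not overlap, with HI 3 lowest. Its log2 fold change of -0.85 ± 0.21 (SE) passed by a small margin (edgeR adjusted p = 0.0463) and was the least stable of the 5 calls: it held in 7 of 16 other settings, whereas each of the other 4 held in 13 of 16.

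**Figure D2:**
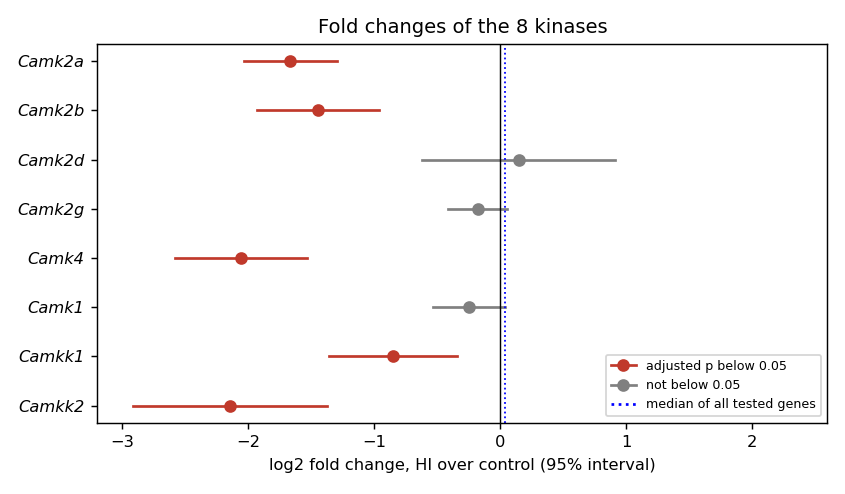
Log2 fold change of HI over control for each kinase (points) with its 95% interval from the edgeR fit (lines), red where the adjusted p was below 0.05, with a dotted line at the median of all tested genes (0.04). The intervals of Camk2a, Camk2b, Camk4, Camkk1 and Camkk2 lie below 0, from -0.85 to -2.15 at their points, and those of Camk2d, Camk2g and Camk1 include 0.

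Neuronal and broadly expressed CaMKII were set against each other within each library, since a ratio of reads in the same library needs no scaling. The ratio of Camk2a plus Camk2b reads to Camk2d plus Camk2g reads was 1.73, 1.66 and 1.42 in HI 1 to 3, against 4.65, 4.97 and 3.44 in controls 1 to 3. The groups were far apart relative to their spread, although control 3 was again nearest to HI. On the log2 scale the ratio averaged 0.68 ± 0.15 in HI and 2.1 ± 0.28 in control (SD, n = 3 each), a difference of -1.43. The exact two-sided permutation test gave p = 0.10, the smallest that 3 against 3 libraries allow, and 0.20 after adjustment over 4 such ratios.

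The CaMKII reads were also divided by gene. Camk2b took 55.2 ± 3.99% of CaMKII reads in HI and 71.8 ± 4.94% in control, Camk2a 6.29 ± 1.46% and 9.24 ± 1.86%, Camk2g 24.5 ± 2.52% and 13 ± 0.627%, and Camk2d 14.0 ± 1.06% and 5.99 ± 2.86% (SD, n = 3 each, HI before control for each gene). These are shares of reads, not of molecules, and as they add up to the whole, a lower share of 1 gene raises the others. The share of Camk2g was higher in HI although its level was 195 ± 16.1 CPM in HI and 221 ± 3.75 CPM in control (SD, n = 3 each).

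Within the pairs the picture differed. The log2 ratio of Camk2a to Camk2b was -3.15 ± 0.43 in HI and -2.97 ± 0.38 in control (SD, n = 3 each), with overlapping groups (exact permutation p = 0.60, adjusted 0.60), and the difference of -0.18 became 0.03 without control 3 and 0.01 without HI 1. The log2 ratio of Camk2d to Camk2g was -0.81 ± 0.20 in HI and -1.22 ± 0.62 in control (SD, n = 3 each), also with overlap (exact permutation p = 0.40, adjusted 0.53), and control 3 gave the highest of the 6 values. Without control 3 the groups did not overlap and the difference was 0.76 in place of 0.41 (exact permutation p = 0.10, the smallest that 3 against 2 libraries allow). The ratio of Camkk1 to Camkk2 reads was 2.81, 2.47 and 2.33 in HI 1 to 3, against 1.04, 0.806 and 1.56 in controls 1 to 3. The ratio was thus higher in every HI library than in any control, with a log2 difference of 1.21 (exact permutation p = 0.10, the smallest possible, adjusted 0.20).

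**Figure D3:**
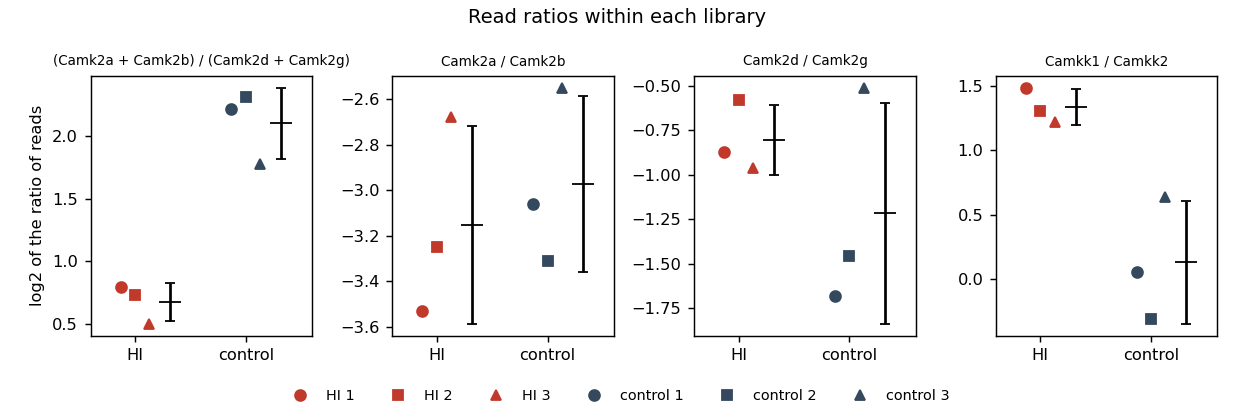
Log2 of 4 ratios of reads within each library, HI (red) left of control (dark blue), with mean and SD as black bars and separate vertical axes that do not start at 0. The neuronal to broad CaMKII ratio lies lower in all HI libraries (0.50 to 0.79) than in the controls (1.78 to 2.31), the Camkk1 to Camkk2 ratio lies higher in HI, and the other ratios overlap.

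Neuron markers moved in the same direction. Of 12 general neuron markers 4 fell in HI and 0 rose, where edgeR called 7.04% of all tested genes lower and 6.83% higher. Of these markers 11 were lower at an unadjusted p below 0.05, and none was at 0 reads. Their median log2 fold change was -1.05, against 0.04 over all tested genes. Their summed level ranged from 3487 to 7389 CPM in HI and from 9617 to 13080 CPM in control. Of 11 excitatory forebrain markers 4 fell and 0 rose, with summed levels of 191 to 381 CPM in HI and 913 to 1816 CPM in control and control 3 lowest among the controls. Inhibitory neuron markers had a median of 0.37, with 0 of 10 called by edgeR. At an unadjusted p below 0.05, 2 of them were lower and 2 higher, and DESeq2 called 2 lower and 1 higher. Among all 14959 tested genes 5460 had such a p, and DESeq2 called 4200. Microglia markers rose in 8 of 10 (summed 294 to 494 CPM in HI and 109 to 165 CPM in control). Astrocyte markers rose in 2 of 10, Gfap and Aqp4, while 3 of 10 had a negative log2 fold change. The lowest of these was Slc1a2 at -1.45, which did not pass (edgeR adjusted p = 0.140). Oligodendrocyte lineage markers fell in 2 of 10, Mbp among them. Without control 1, control 2 or HI 2 no marker of these lists passed in edgeR.

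Each member was therefore set beside the median of the 12 general neuron markers in the same library, with every gene expressed as log2 CPM minus the mean of the controls. That marker median was -0.68, -0.88 and -1.60 in HI 1, HI 2 and HI 3. Camk4 lay 1.08, 1.07 and 0.99 below it in HI 1 to 3 and between 0.22 below and 0.34 above it in the controls. It was thus lower than the median of the general neuron markers by a like amount in each HI library. Against excitatory forebrain markers the order differed. Their median, with a small constant added to CPM, was -2.09, -1.22 and -1.58 in HI 1 to 3, where Camk4 itself had -1.76, -1.94 and -2.58. In controls 1 to 3 that median was 0.52, 0.54 and -0.98. Camkk2 lay 1.28, 1.0 and 0.82 below the median of the general neuron markers in HI 1 to 3. In the controls it lay between 0.46 below and 0.32 above that general neuron median.

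The neuronal CaMKII genes and Camkk1 lay nearer to the marker median in some or all HI libraries. Camk2b lay 0.55, 0.43 and 0.29 below the marker median in HI 1 to 3 and between 0.10 below and 0.11 above it in the controls. Camk2a lay 1.11 and 0.70 below it in HI 1 and HI 2 and at 0.00 in HI 3, which overlapped with the controls. Camkk1 lay 0.08, 0.17 and 0.28 above it in HI 1 to 3, and between 0.12 below and 0.10 above it in the controls, and the groups overlapped. The broadly expressed members stood above the marker median in every HI library. Camk2g lay 0.61 to 1.29 above it in HI and between 0.13 below and 0.25 above it in the controls, and Camk1 0.56 to 1.25 above it in HI and between 0.29 below and 0.33 above it in the controls. Camk2d lay 0.95, 1.34 and 1.54 above it in HI 1 to 3, but with 0.55 and 0.38 below it in controls 1 and 2 and 0.96 above it in control 3 the groups overlapped. How far the share of neurons in the tissue enters these values was not tested.

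**Figure D4:**
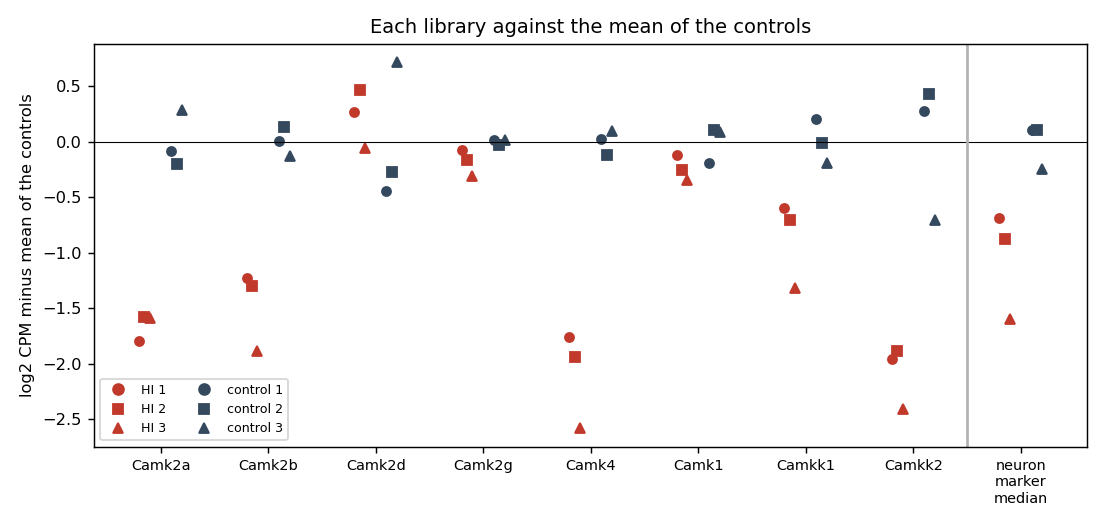
Log2 CPM of each kinase in each library minus its mean over the controls, and at the right the median of 12 general neuron markers on the same scale, HI in red left of control in dark blue. Camk4 and Camkk2 reach lower in HI than the marker median (-0.68 to -1.60), Camkk1 lies near it, and Camk2g and Camk1 lie above it.

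Members differed in how control 3 stood among the controls. In control 3, where Emx1 was far below the other controls, Camk2a and Camk4 were at their highest (189 and 317 CPM), and Camk2d had 156 CPM, against 69.9 and 78.7 CPM in controls 1 and 2. Camkk2, by contrast, was at its lowest there. Within libraries that carried Y-linked reads, HI 2 and HI 3 minus control 3, log2 differences were -1.87 for Camk2a, -1.46 for Camk2b, -2.36 for Camk4, -0.82 for Camkk1 and -1.44 for Camkk2. Within those without, HI 1 minus controls 1 and 2, they were -1.65, -1.30, -1.71, -0.70 and -2.32 in the same gene order. All 5 were negative in both sets, each of which has a lone library on 1 side. Camk2d changed sign between the sets, with -0.51 and 0.63.

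The genes most like a member were sought among 9791 other genes with a mean of at least 10 CPM, by the root mean square distance of centred log2 CPM over the 6 libraries. The 6 points share their library scaling and fall into 2 groups, so any gene with a similar fold change scores well. Nearest to Camk4 were the potassium channel gene Kcnq5 (0.17) and the phospholipase gene Plcb1 (0.22), where the median gene stood at 1.07. Nearest to Camk2b were Ydjc (0.07), the GTPase regulator Arhgap33 (0.08) and Rasgrp2, a calcium-responsive exchange factor (0.09), with a median gene at 0.77. LOC100910079 (0.13), the immediate early gene Egr3 (0.17) and the transcription factor gene Klf9 (0.18) were nearest to Camk2a, and Shb (0.07), Dock10 (0.12) and Zfp467 (0.13) to Camk2d. Kcnq5, for example, had 31.6, 26.3 and 16.7 CPM in HI 1 to 3 and 94.9, 87.8 and 79.0 CPM in controls 1 to 3, while Shb was highest in control 3, with 27.1, 29.5 and 23.7 CPM in HI 1 to 3 and 17.1, 19.5 and 38.6 CPM in controls 1 to 3. Among the members the closest pair was Camk2g and Camk1 (0.11), followed by Camk2b and Camkk1 (0.32), and the most distant pair was Camk2d and Camkk2 (1.35).

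Genes around the kinases were examined in 6 lists, and in each of them 0 genes passed without control 1, control 2 or HI 2, with 4 to 13 genes a list lower at an unadjusted p below 0.05. For every list the background is 5460 of 14959 tested genes at an unadjusted p below 0.05, in either direction, and 4200 called by DESeq2. In the list of other kinases and inhibitors 3 of 14 fell and 0 rose, against 7.04% and 6.83% in the table. There 5 were lower and 3 higher at an unadjusted p below 0.05 (DESeq2 called 5 lower and 1 higher). Camkv, a kinase-like protein of synapses without known catalytic activity, had 179, 220 and 158 CPM in HI 1 to 3, against 601, 651 and 512 CPM in controls 1 to 3, and fell to 0.316 of control (edgeR adjusted p = 0.0196). Camk1d, another CaMKI gene, fell by 1.17 on the log2 scale, and Camk2n1, an endogenous inhibitor of CaMKII, fell by 0.88 (edgeR adjusted p = 0.0215 and 0.0404). Phkg1, the catalytic subunit of muscle phosphorylase kinase, had at most 5.27 CPM in any library and, at a log2 fold change of 1.46, missed the threshold (edgeR adjusted p = 0.0858). The list median was -0.04.

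Calmodulin genes were lower. Calm2 fell to 0.514 and Calm3 to 0.614 of control (edgeR adjusted p = 0.0232 and 0.0459). These genes encode the same protein, and how reads of similar sequence were assigned among them is not known, although their entries were whole. Calm2 had 411, 351 and 309 CPM in HI 1 to 3, against 731, 745 and 608 CPM in controls 1 to 3, with no overlap. Of 7 calmodulins and calmodulin-binding proteins 3 fell and 0 rose, with 6 lower and 0 higher at an unadjusted p below 0.05, 6 lower and 0 higher by DESeq2, and a median log2 fold change of -0.96. Without control 3 the counts were 3 and 1. Pcp4, a small calmodulin-binding protein, missed the threshold at a log2 fold change of -1.42 (edgeR adjusted p = 0.0507).

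Among anchors and substrates of CaMKII at the synapse 9 of 18 fell and 0 rose, with 13 lower and 0 higher at an unadjusted p below 0.05, 12 lower and 0 higher by DESeq2, and a median of -0.90. Grin2b, the NMDA receptor subunit to which active CaMKII binds, had 255, 256 and 165 CPM in HI 1 to 3, against 607, 607 and 476 CPM in controls 1 to 3. It fell to 0.400 of control (edgeR adjusted p = 0.0228) and the groups did not overlap. Grin2a, another NMDA receptor subunit, fell to 0.273 and the calcium release channel gene Ryr2 to 0.307 of control (edgeR adjusted p = 0.0219 and 0.0235).

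Of other calmodulin effectors 6 of 14 fell and 0 rose, with 6 lower and 0 higher both at an unadjusted p below 0.05 and by DESeq2, and 3 lower by limma-voom. The median was -0.42, and -0.05 without control 3. Adcy1, a calmodulin-stimulated adenylyl cyclase of neurons, had 389, 390 and 204 CPM in HI 1 to 3, against 1938, 2430 and 1301 CPM in controls 1 to 3. It thereby fell further than any of the 8 kinases, to 0.173 of control (edgeR adjusted p = 0.0215). The plasma membrane calcium pumps Atp2b1 and Atp2b2 fell to 0.379 and 0.337, and Itpka, an inositol trisphosphate kinase of dendritic spines, to 0.152 of control (edgeR adjusted p = 0.0215, 0.0274 and 0.0336). Itpka had 9.01, 14.4 and 39.6 CPM in controls 1 to 3.

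Phosphatases that oppose the kinases were listed with their regulators. Of 14, 6 fell and 1 rose, with 9 lower and 1 higher both at an unadjusted p below 0.05 and by DESeq2, and a median of -0.54. The catalytic calcineurin subunits Ppp3ca and Ppp3cb fell to 0.457 and 0.448 of control (edgeR adjusted p = 0.0215 and 0.0232). A further catalytic subunit, Ppp3cc, and the regulatory subunit Ppp3r1, both named after their values were seen, fell to 0.662 and 0.687 (edgeR adjusted p = 0.0369 and 0.0420). Ppp1r1a, an inhibitor of protein phosphatase 1, and Ppp1r9b, its scaffold in spines, fell by 0.77 and 0.64 on the log2 scale (edgeR adjusted p = 0.0198 and 0.0242). The 1 gene that rose was Ppm1f, a phosphatase that dephosphorylates CaMKII, named here for that count. It had 92.6, 101 and 127 CPM in HI 1 to 3, against 59.7, 69.7 and 71.8 CPM in controls 1 to 3, a log2 fold change of 0.67 ± 0.15 (SE, edgeR adjusted p = 0.0358). Without control 3 this list had 5 genes lower and 0 higher, with 1 higher at an unadjusted p below 0.05, so the call of Ppm1f ended.

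In the list of targets downstream of CaMKIV, CaMKI and Camkk2, 4 of 22 fell and 0 rose, with 8 lower and 7 higher at an unadjusted p below 0.05, 7 lower and 5 higher by DESeq2, and a median of -0.13. With total-count scaling 2 fell and 7 rose, and without control 3 the counts were 4 and 3 and the median 0.13. The 4 that fell were Mef2a, Mef2c and Mef2d, activity-regulated transcription factors, and the CREB coactivator gene Crtc1. Mef2c had 104, 133 and 128 CPM in HI 1 to 3, against 1367, 1691 and 369 CPM in controls 1 to 3, so its control level also depended on the library. Mef2a fell to 0.482, Mef2d to 0.624 and Crtc1 to 0.698 of control (edgeR adjusted p = 0.0207, 0.0327 and 0.0499). The CREB target Fos, chosen after its values were seen, had 12.3, 32.3 and 28.5 CPM in HI 1 to 3, against 4.01, 1.77 and 8.54 CPM in controls 1 to 3. Its log2 fold change of 2.35 had the sign opposite to that of Camk4 and did not pass (edgeR adjusted p = 0.0510).

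**Figure D5:**
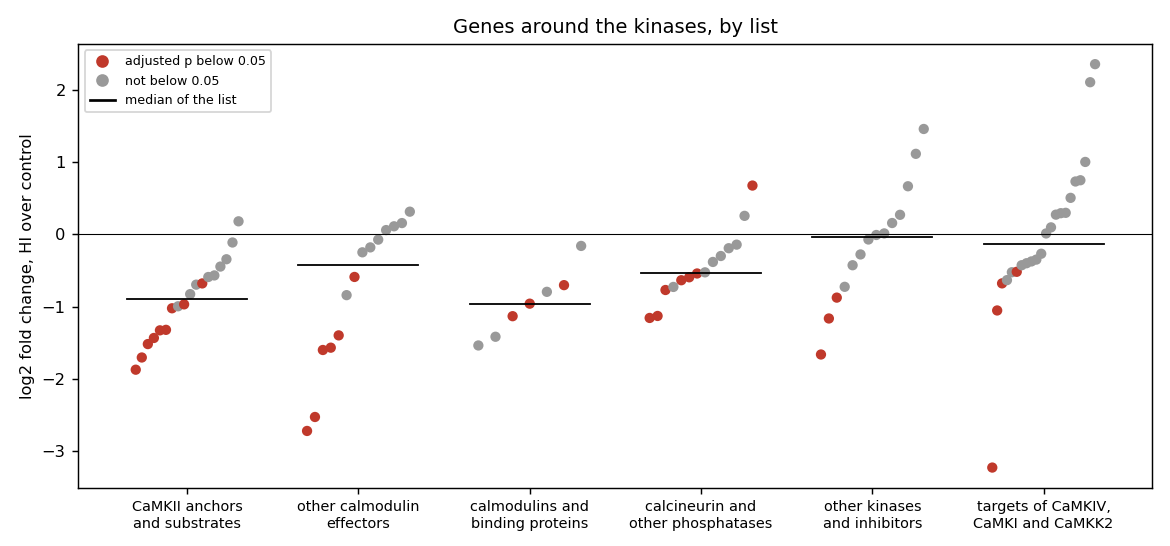
Log2 fold change of HI over control for the tested genes of 6 lists around the kinases, in order of value within a list, red where the edgeR adjusted p was below 0.05, with the list median as a black line. The median is lowest among the calmodulins and their binding proteins (-0.96) and the CaMKII anchors and substrates (-0.90), and near 0 among other kinases (-0.04) and downstream targets (-0.13).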

How the data were processed

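The data are RNA-seq of rat brain tissue in 3 HI and 3 control libraries. TRIzol extraction and a SMARTER mRNA-Seq kit were used, per the labels' protocols. The tools named are StringTie 2.2.1, HISAT2 2.1.0 and SAMtools 1.10, with assembly Rnor 6.0, per the submitters' processing notes. Counting tool, annotation and strand setting: not given in the sources used here. Estimated counts per gene were deposited by the authors without scaling. In 2410 genes some entries were not whole to within 1e-09, Camk2g among the members.

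Counts were rounded, filtered with filterByExpr (minimum count 10), scaled by TMM and tested in edgeR 4.0.16 (quasi-likelihood test, R 4.3.3), two-sided, group as the only term, Benjamini-Hochberg over 14959 genes, threshold 0.05. SE and 95% intervals were derived from the F statistic and its degrees of freedom. No library pair was a duplicate (chi-square per degree of freedom from 13.4 to 162). Ratios of reads were compared by exact permutation over libraries. The edgeR step was run on simulated counts with the same dispersion for every gene, in which libraries differed only in size and group. That run therefore does not bear on how the calls depend on single libraries here. Alternatives were other scalings, DESeq2 1.42.0, limma-voom (limma 3.58.1), other filters, robust dispersion, Y-linked reads as a covariate, a block for the replicate number, and fits without each library in turn. Members and lists were chosen with earlier results of these data known. The comparison with the neuron marker median and the list counts under the alternatives were added after the data were seen. Named are all members, up to 4 members with the smallest p of each list, and the 3 nearest genes of 4 members. Genes beyond that rule are marked, and some genes within it are not reported here. Gene names come from the table. RefSeq promoters were matched by symbol, for 7 of 8 members.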

Additional observations from a re-analysis of the deposited data

How the results depend on the processing

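Over 16 other settings Camk2a, Camk2b, Camk4, Camk1, Camkk1 and Camkk2 had a negative log2 fold change in each one, and Camk2a, Camk2b, Camk4 and Camkk2 lost their edgeR call only without control 1, control 2 or HI 2 (adjusted p from 0.0753 to 0.0924). The cause was not tested. Camkk1 lost it in 9 settings, with limma-voom (adjusted p = 0.0513), upper-quartile factors (0.0528), total counts (0.0547) and the Y-linked covariate (0.0824) among them. Camk2d turned to -0.0899 and -0.0343 without control 1 and control 2 (leave-one-out range -0.0899 to 0.56), and Camk2g to 0.0109 with total counts. The number of members called ranged from 0 to 5 and that of genes in the whole table from 0 to 3689 when a library was left out, and the table gave 4200 genes with DESeq2, 1371 with limma-voom and 774 with the Y-linked covariate. The difference in the Camk2a to Camk2b ratio ranged from -0.42 to 0.0303 when a library was left out. The neuronal to broad CaMKII difference ranged from -1.59 to -1.32, that of Camkk1 to Camkk2 from 0.99 to 1.47 and that of Camk2d to Camk2g from 0.18 to 0.76, the last without control 3.

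Whether replicate numbers pair the libraries could not be decided from 3 libraries a group. Deviations of same-numbered libraries correlated at 0.24, 0.07 and -0.15 across genes. The same-numbered control was the closest for HI 1 and HI 2, while HI 3 was closest to control 2 (0.32). With the replicate block 1723 genes and 5 members passed, and exact sign-flip tests of the 4 ratios gave p from 0.25 to 0.50, where 0.25 is the smallest possible. With 3 libraries a group, pairing leaves the differences themselves (-1.43, -0.18, 0.41 and 1.21) as they are by arithmetic.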
